A study of Mus musculus with 6 samples.

Results

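The promoter regions that were called as accessible chromatin in WT but not in Pbrm1 cKO oviductal smooth muscle cells are described here. Overlapping entries were merged within the reproducible peak list of each genotype, which gave 56436 WT and 58935 Pbrm1 cKO regions. A WT region was kept when no base of it overlapped a Pbrm1 cKO region and when it lay within 1000 bp of an annotated transcription start in GRCm38/mm10. Of 8908 WT-only regions, 1761 (19.8%) met the rule, out of 66679 merged regions in both lists, and they lay at the starts of 1682 genes, 1277 of them protein-coding. For comparison, 15977 promoter regions were shared by both lists and 1490 were called in Pbrm1 cKO alone. There was 1 list per genotype, so the selection itself has no replicate check, and because absence from the Pbrm1 cKO list defined the regions, their lower signal in Pbrm1 cKO is a description and not a finding.

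ATAC-Seq, which marks open chromatin by where the Tn5 transposase can cut, was carried out on primary smooth muscle cells digested from oviducts of female mice aged 8 to 12 weeks on day 2 of pregnancy and plated for some hours. There were 3 libraries labelled WT and 3 labelled Pbrm1 KO. In the Pbrm1 cKO mice, loxP-flanked Pbrm1 (Pbrm1 fl/fl) was deleted by a Cre recombinase placed in the progesterone receptor gene (PR-IRES-cre). The deletion was thus limited to cells in which the Pgr gene is or has been active, and cells in which it never was keep Pbrm1. The study's own description calls the controls of this cell type Pbrm1 fl/fl and the sample labels call them WT, and WT is used here. The study's figure legend for these cells calls the replicates 3 biological replicates. The labels do not say whether the 3 libraries of a genotype came from separate mice. The p-values thus measure only the spread between these libraries.

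PBRM1 (BAF180) is a bromodomain subunit of PBAF, a form of the SWI/SNF complex that uses ATP to slide or evict nucleosomes. At active promoters a stretch just before the transcription start is usually free of nucleosomes, which makes it the most accessible part of many genes. Many mammalian promoters lie in CpG islands and are open in most cell types, while CpG-poor promoters are more often open in particular cell types.

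The cells were first checked against their label. All 5 smooth muscle markers tested (Acta2, Myh11, Cnn1, Tagln, Des) had a promoter region in both lists. Of 6 epithelial markers, Foxj1, of ciliated cells, alone had one, in both lists, and Epcam, Cdh1, Krt8, Pax8 and Ovgp1 had none. Of 5 immune and endothelial markers, Csf1r and Pecam1 had one in both lists, and of 5 fibroblast and pericyte markers Col1a1 and Pdgfrb had one in both and Pdgfra in the Pbrm1 cKO list alone. A region lay at the Pbrm1 start in both lists, with ranks (defined below) of 19394, 10525 and 19166 in WT and 12415, 12332 and 22222 in Pbrm1 cKO, and a region at the start does not check the deletion. Foxj1 ranked between 2715 and 7249 in the 6 libraries, above every smooth muscle marker, the best of which in any library was Acta2 at 14049, and the part of other cells in the results was not tested. The files give no read totals, so the number of sequenced tags over each summit is given with the results instead.

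The WT-only promoter regions were of 2 kinds. For 886 of them (50.3%, Wilson 95% interval 48.0 to 52.6, counting error only), the nearest start still had another Pbrm1 cKO region within 1000 bp, so the promoter as a whole stayed called. For the other 875 (49.7%, 47.4 to 52.0), no Pbrm1 cKO region lay within 1000 bp of that start, and for 765 (43.4%, 41.1 to 45.8) this held for every annotated start of the gene. Pbrm1 cKO-only promoter regions divided in much the same way, with 677 of 1490 (45.4%) beside a start with a WT region and 714 (47.9%) at genes with no start called in WT.

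The sequences below are of regions on which the results turn. Each is the longest stretch, outside annotated UTRs, of the 300 bp window centred on the WT summit in GRCm38, read along the strand of the gene, with every CG dinucleotide in capitals. Of these, Gm20619, Ska2 and Srd5a1 followed a fixed rule, and Nfasc, Kcp, Col6a3, Tlr6 and Slc25a44 were added after their values were seen. The first 5 show promoters left with no Pbrm1 cKO region at the start and of differing CpG content.
Nfasc, chr1:132741798-132741912 (-): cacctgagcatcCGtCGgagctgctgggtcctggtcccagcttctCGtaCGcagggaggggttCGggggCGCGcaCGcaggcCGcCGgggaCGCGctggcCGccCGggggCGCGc
Kcp, chr6:29507953-29508097 (-): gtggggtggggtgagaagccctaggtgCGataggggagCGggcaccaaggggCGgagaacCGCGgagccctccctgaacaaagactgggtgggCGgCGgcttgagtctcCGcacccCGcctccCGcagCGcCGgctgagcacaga
Col6a3, chr1:90843972-90844168 (-): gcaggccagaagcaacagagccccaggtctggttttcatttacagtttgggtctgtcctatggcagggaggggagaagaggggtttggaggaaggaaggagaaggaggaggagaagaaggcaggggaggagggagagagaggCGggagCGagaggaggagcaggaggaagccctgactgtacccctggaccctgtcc
Tlr6, chr5:64960098-64960226 (-): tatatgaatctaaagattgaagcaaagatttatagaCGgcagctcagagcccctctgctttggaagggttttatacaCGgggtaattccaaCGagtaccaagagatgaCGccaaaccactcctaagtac
Gm20619, chr6:6299217-6299516 (+): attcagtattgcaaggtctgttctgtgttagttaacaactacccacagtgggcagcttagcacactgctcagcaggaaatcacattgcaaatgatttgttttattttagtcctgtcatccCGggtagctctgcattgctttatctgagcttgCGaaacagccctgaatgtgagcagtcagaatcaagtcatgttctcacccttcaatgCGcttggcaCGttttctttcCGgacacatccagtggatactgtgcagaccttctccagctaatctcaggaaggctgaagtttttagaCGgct
The next 3 show regions that lay beside a promoter still called in Pbrm1 cKO. All 3 have their summits after the start, those of Slc25a44 and Ska2 in an intron and that of Srd5a1 in an exon.
Slc25a44, chr3:88424559-88424771 (-): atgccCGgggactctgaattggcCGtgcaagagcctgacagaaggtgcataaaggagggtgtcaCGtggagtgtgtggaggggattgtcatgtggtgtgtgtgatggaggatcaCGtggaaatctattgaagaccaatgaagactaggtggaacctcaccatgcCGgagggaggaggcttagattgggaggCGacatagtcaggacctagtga
Ska2, chr11:87109354-87109653 (+): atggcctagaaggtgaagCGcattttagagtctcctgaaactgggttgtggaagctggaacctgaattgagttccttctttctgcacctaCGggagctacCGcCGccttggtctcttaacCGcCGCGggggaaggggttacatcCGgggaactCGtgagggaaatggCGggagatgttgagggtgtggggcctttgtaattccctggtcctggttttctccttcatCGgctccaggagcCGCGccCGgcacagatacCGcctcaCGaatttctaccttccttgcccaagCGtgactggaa
Srd5a1, chr13:69610909-69611208 (-): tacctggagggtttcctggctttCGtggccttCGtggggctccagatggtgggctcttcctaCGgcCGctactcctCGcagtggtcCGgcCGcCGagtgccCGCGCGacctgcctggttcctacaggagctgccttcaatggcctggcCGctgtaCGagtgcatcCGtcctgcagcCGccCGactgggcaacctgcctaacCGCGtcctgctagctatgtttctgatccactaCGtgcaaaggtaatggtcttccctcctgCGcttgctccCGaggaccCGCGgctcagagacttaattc
The Nfasc stretch has a CpG observed/expected ratio of 0.94 and 77.4% GC, and that of Col6a3, of which 56.9% is marked as repeat, a ratio of 0.14 and 59.9% GC. The ratios of Kcp, Tlr6 and Gm20619 were 0.69, 0.66 and 0.38. The Tlr6 stretch, with 43.4% GC, matches TATAAA only on the strand opposite to the gene, as TTTATA in the letters printed.

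The region kinds lay at different places around the start. Where the start was no longer called, 495 of 875 regions (56.6%) covered the start itself, and the summit was a median of 214 bp from it. Where the start was still called, 105 of 886 (11.9%) covered it, the median distance was 468 bp, and 62.6% of summits lay downstream. In shared promoter regions 76.5% covered the start, at a median distance of 92 bp. The summit lay in an intron for 52.9% of regions beside a called start, 33.9% of regions at an uncalled start and 22.2% of shared promoter regions. Coverage of the start and distance to it follow partly from the rule, since a region beside a called one cannot lie where that one lies.

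**Figure D1:**
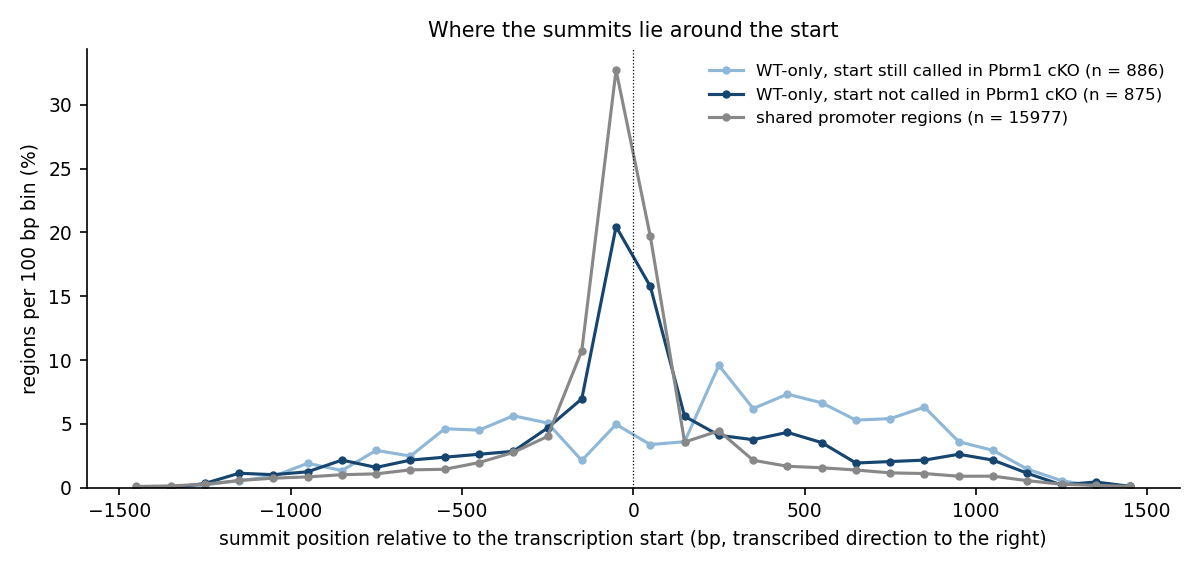
Position of region summits relative to the nearest transcription start (x axis, bp, transcribed direction to the right) as percent of regions per 100 bp bin (y axis), one line per set. WT-only regions at starts not called in Pbrm1 cKO peak in the 100 bp before the start (20.5%), as shared promoter regions do (32.7%), while those beside a start still called have their highest bin at 200 to 300 bp after it (9.59%) and 4.97% in the 100 bp before it.

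The 886 regions beside a called start mostly adjoined a region of both genotypes. Of them, 830 also had a shared WT region within 1000 bp of the start. Their median gap to the nearest Pbrm1 cKO region was 98.5 bp, and 547 (61.7%) lay within 150 bp of one. Over all 1761 regions, 25.6% lay within 100 bp and 44.5% within 500 bp of a Pbrm1 cKO region. Of the 886, 85.3% lay nearest a protein-coding start, against 66.7% of the 875 at uncalled starts and 86.4% of shared promoter regions. Of the 875, 102 (11.7%) lay at lincRNA starts and 57 (6.51%) at pseudogene starts.

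WT-only promoter regions were among the narrow and weak entries of the WT list. Their median width was 328 bp, against 776 bp for shared promoter regions, with 239 bp beside a called start and 439 bp at an uncalled one. The median −log10 p of the peak in the pooled WT list was 27.1, against 151 for shared promoter regions, and the median fold over local background was 6.29 against 14.7. In the WT list 1198 (68.0%) were in the weakest 25% by −log10 p and 57 (3.24%) in the strongest 50%. The highest score of the reproducibility step was reached by 8.57% of WT-only and 81.0% of shared promoter regions. Pbrm1 cKO-only promoter regions were alike in size in their own list, with a median width of 294 bp and a median −log10 p of 32.7.

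Signal in single libraries was compared by rank. Within each library every one of the 66679 regions was ranked by the best −log10 p of the library's own peak entries over it, so that rank 1 is the most significant region, ties share a mean rank, and a region with no entry takes the lowest rank. The median rank of WT-only promoter regions was 47295, 48490 and 45497 in WT libraries 1 to 3 and 62606, 61628 and 56202 in Pbrm1 cKO libraries 1 to 3. Shared promoter regions had medians between 10141 and 12362 in the 6 libraries. Pbrm1 cKO-only promoter regions had medians of 59244, 60642 and 47515 in WT and 50610, 48878 and 49837 in Pbrm1 cKO, so that WT library 3 ranked them close to the Pbrm1 cKO libraries.

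**Figure D2:**
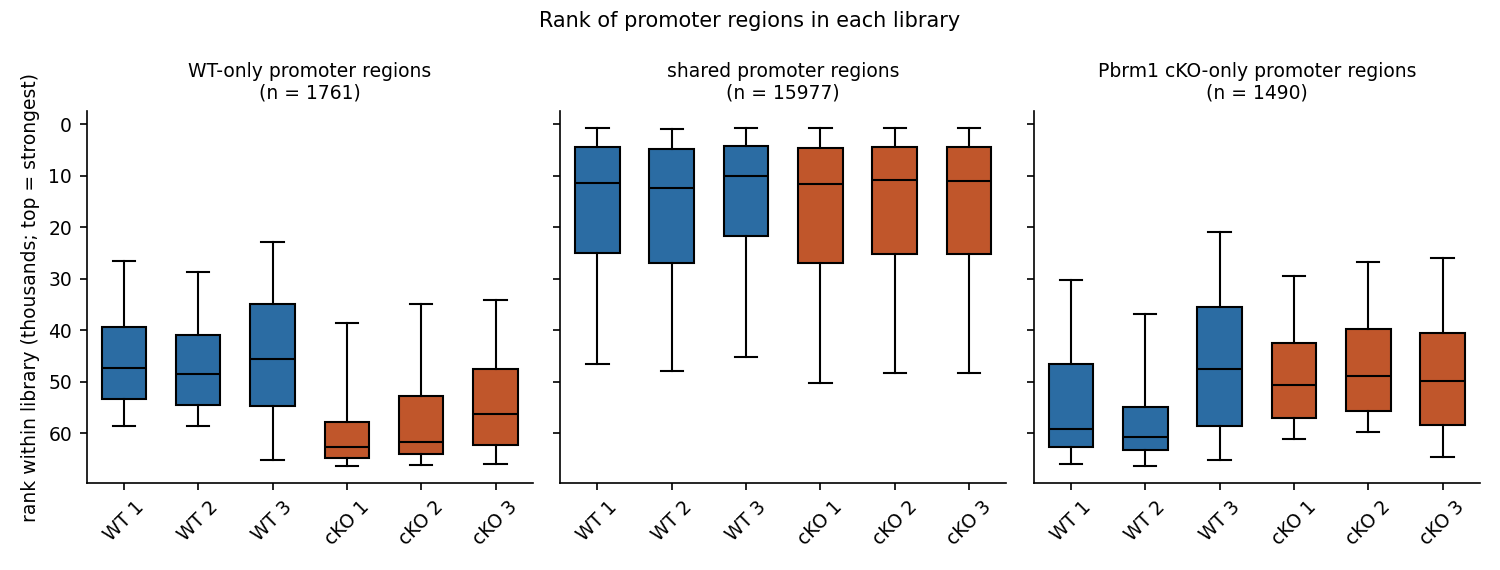
Rank of promoter regions within each library (y axis, in units of 1000 ranks, strongest at the top) for the WT-only, shared and Pbrm1 cKO-only sets. Boxes span the quartiles with the median as a line, and whiskers run from the 5th to the 95th percentile of regions. WT-only regions have medians of 45497 to 48490 in WT and 56202 to 62606 in Pbrm1 cKO, and the boxes of the 3 WT libraries overlap those of Pbrm1 cKO libraries 2 and 3.

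Most WT-only promoter regions still had a peak entry in the Pbrm1 cKO libraries, though fewer than of all regions. A peak entry at the permissive threshold was present in all 3 Pbrm1 cKO libraries for 1587 regions (90.1%), in 2 for 121, in 1 for 31 and in none for 22 (1.25%). In WT, 1637 (93.0%) had an entry in all 3 libraries, 111 in 2 and 13 in 1. The median number of tags over the summit was 23, 20 and 13 in WT libraries 1 to 3 and 17, 16 and 17 in Pbrm1 cKO libraries 1 to 3. Tag numbers differed between libraries at the same rank, and regions of middle rank (33000 to 34000) held a median of 23, 24 and 15 tags in WT and 29, 22 and 26 in Pbrm1 cKO. Against that level, WT-only promoter regions held 1.00, 0.833 and 0.867 of the middle-rank tags in WT and 0.586, 0.727 and 0.654 in Pbrm1 cKO. WT library 3 had the fewest tags and no entry at 1049 regions of the WT list, against 42 and 46 in WT libraries 1 and 2.

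The difference between genotypes was fitted with limma on the log2 of the ratio of 66679 to the rank (a rank score, higher for stronger regions), and is given as Pbrm1 cKO minus WT on the log2 scale with its SE (n = 3 libraries per genotype). The median difference over the 1761 regions was -0.32, and 1600 (90.9%) were below 0, as the rule favours. All 3 WT libraries ranked a region above all 3 Pbrm1 cKO libraries at 726 (41.2%), against 10.9% of all 66679 regions and 8.00% of shared promoter regions. The tied rank of a missing entry differed by library, at 66325, 66344.5 and 65147 in WT and 66479.5, 66448.5 and 66371 in Pbrm1 cKO. A WT library without an entry can thus count as above a Pbrm1 cKO library, so these shares lean towards WT. None passed an adjusted p of 0.05 by limma with Benjamini-Hochberg adjustment over all regions, where the background was 0.0285% of regions called lower. At an unadjusted p under 0.05, limma had 719 lower and 2 higher, beside 5581 lower and 5005 higher of all 66679 regions. With the replicate number as a block 8 passed (background 0.0975%). With normal scores (ranks turned into quantiles of a normal distribution) in place of log2 ranks, 145 passed, against a background of 1.33%, so whether single regions pass turns on the scale of the rank. Since the rule used the same contrast, nothing is read from these counts.

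The region with the smallest adjusted p was at Slc25a44, a mitochondrial carrier of branched-chain amino acids. Its ranks were 33643.5, 25263 and 22573.5 in WT and 65080, 63949.5 and 63553.5 in Pbrm1 cKO, with 34, 36 and 24 tags against 16 in each Pbrm1 cKO library. The groups did not overlap, and the difference was -1.26 ± 0.24 (SE, n = 3 per genotype), with an adjusted p of 0.0688 by limma. The region (chr3:88424569-88424793) lies in an intron with its summit 398 bp after the start, and a Pbrm1 cKO region 226 bp away keeps the promoter called. Arhgap45, a GTPase-activating protein, was of the same kind, with ranks of 33753, 26753.5 and 24796.5 in WT and 61012.5, 64208 and 65555 in Pbrm1 cKO and a difference of -1.17 ± 0.23. Slc25a44 was named through the solute carrier list below, and Arhgap45, Asb2, Rgs4 and Tagln3 after their values were seen.

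At several genes with a WT-only region, no start of the gene was called in Pbrm1 cKO. Nfasc encodes neurofascin, a cell adhesion molecule best known at the node of Ranvier. Its region, chr1:132741530-132742094, has its summit on the start, and the nearest Pbrm1 cKO region was 16591 bp away. The ranks were 38999, 24214.5 and 22979.5 in WT and 64717, 64040 and 65227.5 in Pbrm1 cKO, and the tags were 20, 28 and 18 against 9, 9 and 7. The 3 WT libraries were all above the 3 Pbrm1 cKO libraries, with a difference of -1.21 ± 0.25 and an adjusted p of 0.0746 by limma.

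Asb2 encodes the substrate-recognition subunit of a ubiquitin ligase that acts on filamins in muscle. Its ranks at chr12:103355710-103356357, over the start, were 32214, 38070 and 29846 in WT and 65347, 64520.5 and 64249.5 in Pbrm1 cKO. Each Pbrm1 cKO library held 8 tags there, and the WT libraries held 24, 20 and 15. The groups did not overlap (difference -0.96 ± 0.20).

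Ranbp3l, a Ran-binding protein that acts in nuclear export of SMAD proteins, had its region 385 bp before the start (chr15:8967390-8968041). It held 23, 26 and 15 tags in WT and 6, 11 and 9 in Pbrm1 cKO, at ranks of 36197.5, 22510.5 and 26520.5 against 66173, 60489.5 and 62893.5. The difference was -1.18 ± 0.25, with no overlap. Rgs4, a regulator that shortens G protein signalling and is expressed in smooth muscle, had a difference of -1.05 ± 0.23 at a region over its start, and Tagln3, a neuronal relative of the smooth muscle gene Tagln, one of -0.97 ± 0.21.

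Kcp, a secreted modulator of BMP signalling, and Col6a3, a chain of collagen VI in the extracellular matrix, had regions over their starts whose WT ranks were tight. For Kcp (chr6:29507444-29508232) the ranks were 24055, 29267.5 and 23866 in WT and 62297.5, 46636 and 52461.5 in Pbrm1 cKO (difference -1.06 ± 0.27). For Col6a3 (chr1:90843892-90844223) they were 24264, 25484.5 and 23877 in WT and 40308.5, 62940 and 34858 in Pbrm1 cKO (difference -0.86 ± 0.31), where cKO library 2 was far below the other two. Neither pair of groups overlapped.

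Others of this kind were Apol9b, an apolipoprotein L family member with a near-identical neighbour (-0.96 ± 0.30), Creb3l4, a membrane-bound CREB-family factor (-0.84 ± 0.31), Ctxn3, a small membrane protein (-0.98 ± 0.28), and Tmem229a (-0.64 ± 0.30). Reads from near-identical copies cannot be told apart in these lists. The lincRNA Gm20619, at chr6:6299045-6299825, was ranked 27181, 16930.5 and 22676.5 in WT and 61893, 50567 and 41357.5 in Pbrm1 cKO (difference -1.21 ± 0.31).

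Ptpn18, a PEST-type tyrosine phosphatase, differed in that another start of the gene was still called. Its WT-only region, chr1:34472599-34473308, covered one of its starts, 12431 bp from the nearest Pbrm1 cKO region. It was ranked 28368, 22612 and 20505.5 in WT and 65347, 52722 and 61135.5 in Pbrm1 cKO, with no overlap and a difference of -1.33 ± 0.27 (adjusted p 0.0721 by limma).

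Regions of high significance in the pooled WT list did not all differ between libraries. The highest −log10 p (81.2) was at the snoRNA Gm24580, where ranks were 11083.5, 19440.5 and 51846.5 in WT and 45802, 10925 and 14489 in Pbrm1 cKO. The groups overlapped, and the difference was 0.21 ± 0.53. Rnf213, an interferon-inducible ubiquitin ligase with its region over the start, was ranked 24383, 23703 and 41159 in WT and 24179, 56413 and 33782 in Pbrm1 cKO, also with overlap (-0.32 ± 0.35). Ska2, a kinetochore protein, had ranks of 26600, 25067 and 36888.5 in WT against 27181, 58731 and 58548 in Pbrm1 cKO (-0.64 ± 0.33), with cKO library 1 within the WT range. Map2k2, the MAPK kinase MEK2, did separate, at 24082.5, 21623.5 and 20039 in WT and 63295, 59899 and 33080 in Pbrm1 cKO (-1.20 ± 0.32). So did Gm27943 (-1.27 ± 0.34), Atp6v0c (-0.81 ± 0.33) and Gm45022 (-0.89 ± 0.33), besides Gm20619 and Ptpn18 above, while Szrd1 overlapped (-0.81 ± 0.40). These are the 10 regions of highest −log10 p.

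**Figure D3:**
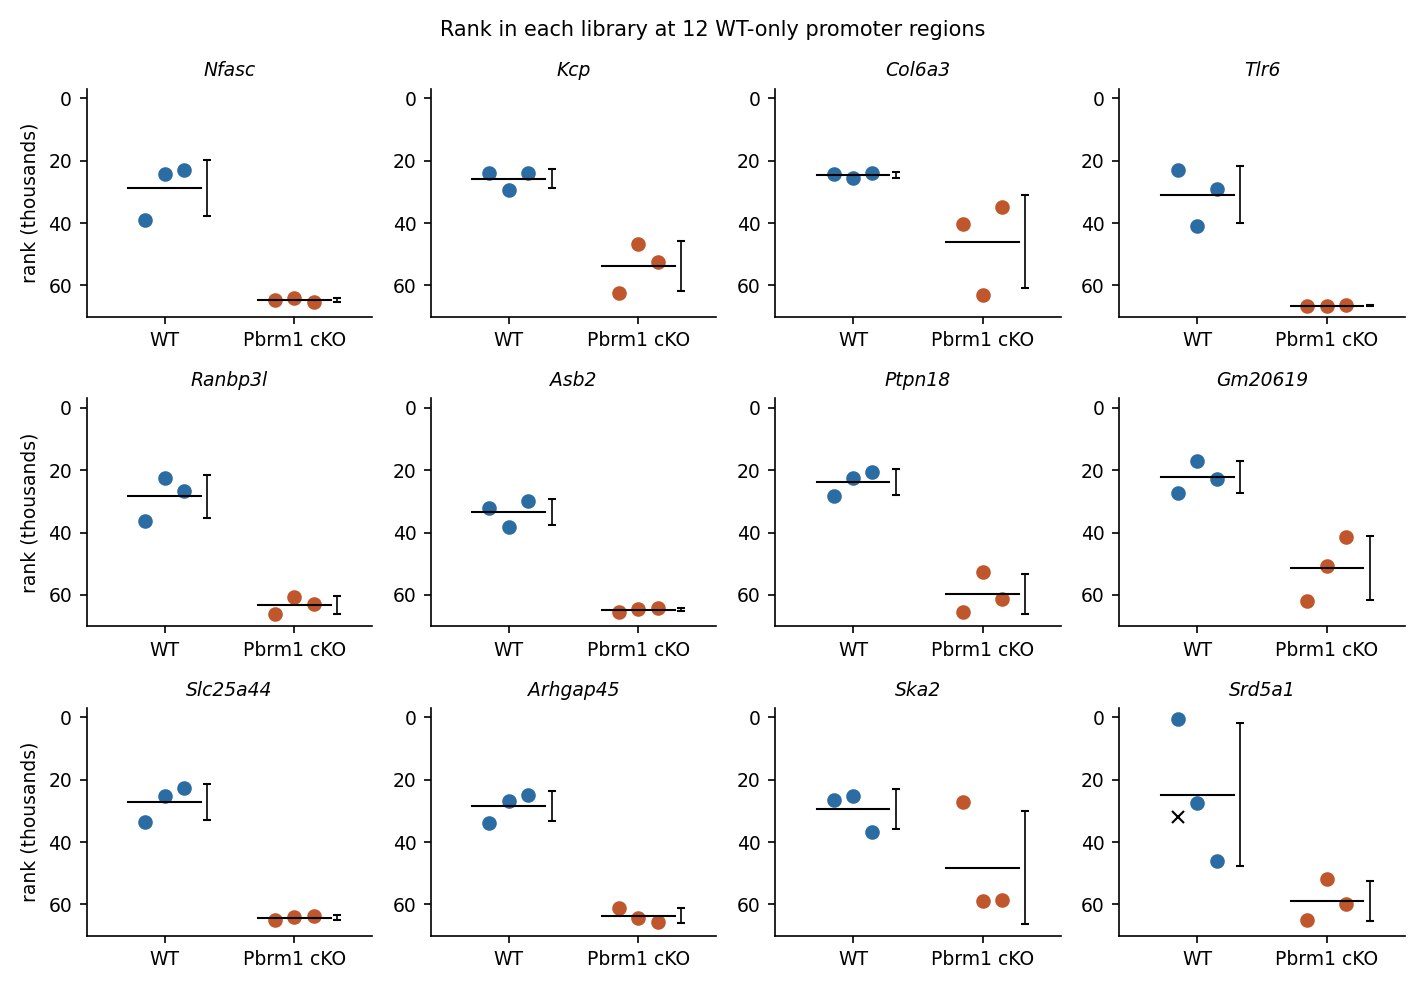
Rank in each library (y axis, in units of 1000 ranks, strongest at the top) at 12 WT-only promoter regions. Points are libraries, ordered 1 to 3 from the left, horizontal lines are means and side bars the SD (n = 3), and the cross at Srd5a1 is the rank of WT library 1 from entries whose summit lies inside the region. At Nfasc, Asb2, Slc25a44 and Tlr6 the 3 Pbrm1 cKO points lie together near the bottom and apart from WT, while at Ska2 the genotypes overlap.

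In the 10 most negative differences, 1 WT library stood far from the others through a wide entry. At Srd5a1, the steroid 5α-reductase that inactivates progesterone and activates testosterone, the ranks were 682.5, 27613 and 46096 in WT and 64918, 51937 and 59799 in Pbrm1 cKO. The WT library 1 rank came from an entry 847 bp wide that ran into the neighbouring promoter, while the other 5 libraries had entries of 98 to 114 bp and the WT-only region is 143 bp. With entries whose summit lies inside the region, WT library 1 ranked it 31877 and the difference moved from -2.62 to -0.77. Aldh6a1 moved from -2.40 to -0.16, Abcf3 from -2.38 to -0.17, Ociad1 from -2.23 to 0.02 and Ticrr from -1.93 to 0.04 in the same way, and Hist3h2bb-ps from -1.93 to -0.16. Sun1 (-1.95 to -0.59), Dclre1c (-2.10 to -0.48), Ccdc96 (-1.82 to -0.40) and Ckap2l (-1.82 to -0.39) stayed below the median of -0.32. All 10 lay beside a start still called. Over all WT-only promoter regions, the best entry of at least 1 library had its summit outside the region at 137 (7.78%), which was 102 (11.5%) beside a called start and 35 (4.00%) at an uncalled one.

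The 22 regions with no entry in any Pbrm1 cKO library were affected likewise. Of the 8 ranked highest in WT, Ss18, 1110059G10Rik and B3gnt5 had an entry in a single WT library, with its summit outside. Tcf4, 4930519P11Rik and Syde1 had such an entry in WT library 2. They also had a weak entry in WT library 3 with its summit inside, at ranks of 58844, 61382.5 and 61777. Ss18, a SWI/SNF subunit, had an entry in WT library 2 alone, 940 bp wide over a region of 107 bp. Tlr6 and Sesn1 had entries of their own in every WT library. Tlr6, a receptor for bacterial lipopeptides, held 33, 19 and 14 tags in WT at ranks of 22818, 40785.5 and 29213.5. Its region lay over the start (chr5:64960016-64960217), no start of the gene was called in Pbrm1 cKO, and the difference was -1.14 ± 0.23. Sesn1, a stress-induced sestrin that restrains mTORC1, held 41, 36 and 21 tags at ranks of 41915, 43627.5 and 48738, beside a start still called (-0.57 ± 0.14).

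Genes were then grouped by lists from general knowledge, chosen with earlier results of these data known, and a WT-only promoter region was counted per gene. Of all 21951 protein-coding genes, 1277 (5.82%) had one, or 10.3% of the 12375 with any called promoter region. For 450 of the 1277 (2.05% of all protein-coding genes), no start of the gene was called in Pbrm1 cKO. No region of any list passed the limma threshold (background 0.0285%), and no list is said to differ from the rest.

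Nuclear hormone receptors, the transcription factors that bind steroids and related ligands, had a WT-only promoter region at 11 of 41 genes (26.8%), or 32.4% of those with any called region. These genes have more annotated starts than most (2.41 per gene against 1.89), and 14.6% had a Pbrm1 cKO-only one. At Pgr, the progesterone receptor, the region chr9:8899976-8902074 covered the start and was the widest of all (2099 bp). It was ranked 41849, 42552 and 27513 in WT and 58865, 43515 and 57884 in Pbrm1 cKO, with the groups just apart (-0.53 ± 0.24). The Cre allele lies in this gene, so the allele and the loss of Pbrm1 cannot be told apart there. At Esr1, the estrogen receptor alpha, a region over one start had ranks of 29201, 35115.5 and 31409 in WT and 33343.5, 59052 and 40419.5 in Pbrm1 cKO, which overlapped (-0.44 ± 0.29), while another start was called in Pbrm1 cKO. Nr3c1, the glucocorticoid receptor, was apart at 53267, 48356 and 36954 against 63524, 64226 and 55083 (-0.41 ± 0.16). The mineralocorticoid receptor Nr3c2 (-0.24 ± 0.17), Rorb with 2 regions (-0.43 ± 0.20 and -0.41 ± 0.12), Esrrg (-0.17 ± 0.27), Pparg (-0.11 ± 0.11) and Rxra (-0.08 ± 0.14) followed, and Esr2, the estrogen receptor beta, was at 0.18 ± 0.20. Of the 13 regions, 3 were apart, where 41.2% of all WT-only promoter regions and 10.9% of all regions were, and the median difference was -0.30 (-0.32 over all WT-only promoter regions).

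Calcium and potassium channels, which set membrane potential and calcium entry in smooth muscle, had one at 19 of 161 genes (11.8%). Of these, 13 had no start called in Pbrm1 cKO (8.07% of the list, against 2.05% of all protein-coding genes). The R-type calcium channel Cacna1e was ranked 32408.5, 53974 and 25592 in WT and 65347, 62970.5 and 63511 in Pbrm1 cKO (-0.85 ± 0.23). Trpv4, a mechanosensitive and osmosensitive cation channel, was ranked 43260, 39325.5 and 34367 against 64525.5, 58147.5 and 63761 (-0.68 ± 0.18). Ryr1, a calcium release channel, was at 36425.5, 51570.5 and 29903 against 58025.5, 62909 and 60106 (-0.66 ± 0.21), and the voltage-gated potassium channel Kcna2 at -0.60 ± 0.29. The groups did not overlap at any of these 4, while at Kcnab1, also of this list, they overlapped (-0.52 ± 0.23). In the whole list 8 of the 19 regions were apart, near the 41.2% of all WT-only promoter regions (10.9% of all regions).

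Extracellular matrix and adhesion genes had 20 regions at 19 of 182 genes (10.4%), 11 of them apart (41.2% of all WT-only promoter regions and 10.9% of all regions were). Beside Col6a3 they included Col5a2, a fibrillar collagen chain (-0.57 ± 0.19) and Itga11, a collagen-binding integrin (-0.35 ± 0.11), both apart. Cdh18 was also apart (-1.14 ± 0.33), while Adamts20 overlapped (-0.16 ± 0.32). Itga11 ranked low in every library, at 49903, 50612 and 54485 in WT and 65347, 66028 and 66371 in Pbrm1 cKO. Solute carriers had 30 regions at 29 of 356 genes (8.15%), 15 of them apart beside the same shares, with Slc7a5, a large neutral amino acid transporter, at -0.62 ± 0.20.

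Of the contractile apparatus, 2 of 32 genes (6.25%, against 5.82% of all protein-coding genes) had one. Myh10, the non-muscle myosin IIB heavy chain, had a region in an exon beside a called promoter, ranked 43010, 44318 and 36150 in WT and 63302.5, 66448.5 and 66371 in Pbrm1 cKO, where libraries 2 and 3 had no entry (-0.67 ± 0.16). Lmod1, a leiomodin of smooth muscle, was at -0.13 ± 0.11. Smooth muscle and mesenchyme transcription factors had 5 of 41, among them Klf4 (-0.14 ± 0.24) and Lhx9 (-0.16 ± 0.12). SWI/SNF subunits had 3 of 30, Ss18, Bcl11a (-0.56 ± 0.29) and Phf10 (-0.27 ± 0.13), all beside called promoters. The prostaglandin genes Slco2a1, a prostaglandin transporter (-0.42 ± 0.17), and Ptgdr, the prostaglandin D2 receptor (-0.28 ± 0.12), made 2 of 29. Both had no start called in Pbrm1 cKO (2.05% of all protein-coding genes). Slco2a1 was apart (41.2% of all WT-only promoter regions and 10.9% of all regions were). Ptgdr was apart only through the tied rank of a missing entry in WT library 3 (65147). Pbrm1 cKO libraries 1 and 2 held 8 and 5 tags there. Of markers of other cell types, 1 of 29 oviduct epithelium genes (Cldn3, -0.15 ± 0.11), 1 of 30 immune and endothelial genes (Erg, -0.54 ± 0.23) and 0 of 20 fibroblast and pericyte genes had one.

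Of the remaining lists, Hedgehog and Notch had 4 of 39 (among them the Hedgehog receptor Ptch1, at -0.30 ± 0.27, and the Notch ligand Dll4, at -0.30 ± 0.14) and p53, cell cycle and arrest 7 of 98 (7.14%, or 7.53% of those with any called region, against 10.3% of all protein-coding genes with one). Wnt genes had 3 of 66, namely the secreted Wnt amplifier Rspo2 (-0.61 ± 0.35), Wnt9b (-0.46 ± 0.16) and Wnt5b (-0.37 ± 0.13). TGF-beta and BMP genes had 3 of 67 with Gdf10 at -0.78 ± 0.23, and FGF genes 2 of 39. Homeobox and related families had 11 of 187 and interferon and antigen presentation genes 7 of 117. The list of contractile and relaxant receptors, which also holds enzymes, had 2 of 34. These were the nitric oxide synthase Nos2 (-0.28 ± 0.13) and the receptor Ednrb (0.07 ± 0.16). Ribosomal proteins had 9 of 158, zinc-finger proteins 27 of 465, histones 3 of 100 and olfactory and vomeronasal receptors 1 of 1435.

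**Figure D4:**
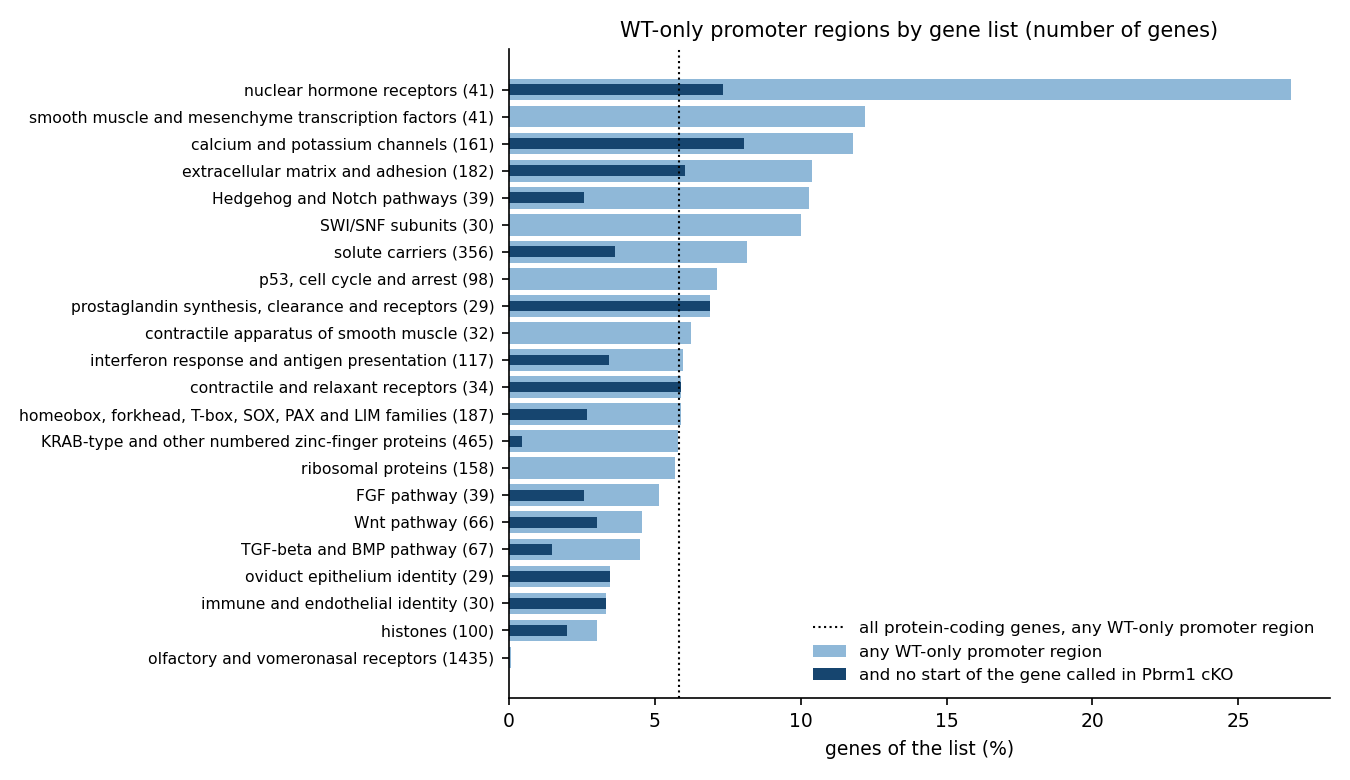
Percent of the genes of each list (x axis; number of genes in brackets) that had a WT-only promoter region (light bars) and of those with, in addition, no start of the gene called in Pbrm1 cKO (dark bars). The dotted line is the 5.82% of all protein-coding genes; nuclear hormone receptors reach 26.8%, calcium and potassium channels 11.8%, and zinc-finger proteins 5.81%. Lists of at least 29 genes are drawn, and the fibroblast and pericyte list with 0 of 20 is left out.

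Shared regions of the same genes, which the rule did not choose, lay where shared regions in general lie. They were called in both lists, and regions of these genes called in a single list were left out. Whether the rest of these genes changed can thus not be read from them. The 2797 shared regions whose nearest gene was one with a WT-only promoter region had a median difference of 0.00, and 49.9% were below 0, against 50.1% of all 46152 shared regions. By limma none passed the threshold in either direction, with 145 (5.18%) lower and 124 (4.43%) higher at an unadjusted p under 0.05, against 4.95% and 4.63% of all shared regions, of which 5 were called lower and 14 higher. Of the genes concerned, 814 also had a shared promoter region, and shared promoter regions nearest to these genes had a median difference of -0.03, as all shared promoter regions did. At 73 genes there were 2 or more WT-only promoter regions, at the same or different starts, with 4 at Ank3, which encodes an ankyrin.

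WT-only promoter regions were poorer in CpG than shared ones. In the 300 bp at the summit the median GC content was 54.7%, against 62.0% in shared promoter regions, 54.0% in Pbrm1 cKO-only promoter regions and 47.3% in WT-only regions away from starts. The median CpG observed/expected ratio was 0.494, against 0.750, 0.474 and 0.231 in the same order. A window with over 50% GC and a ratio over 0.6 was found at 32.3% of WT-only, 65.9% of shared and 35.2% of Pbrm1 cKO-only promoter regions. The ratio was 0.547 beside called starts and 0.425 at uncalled ones.

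**Figure D5:**
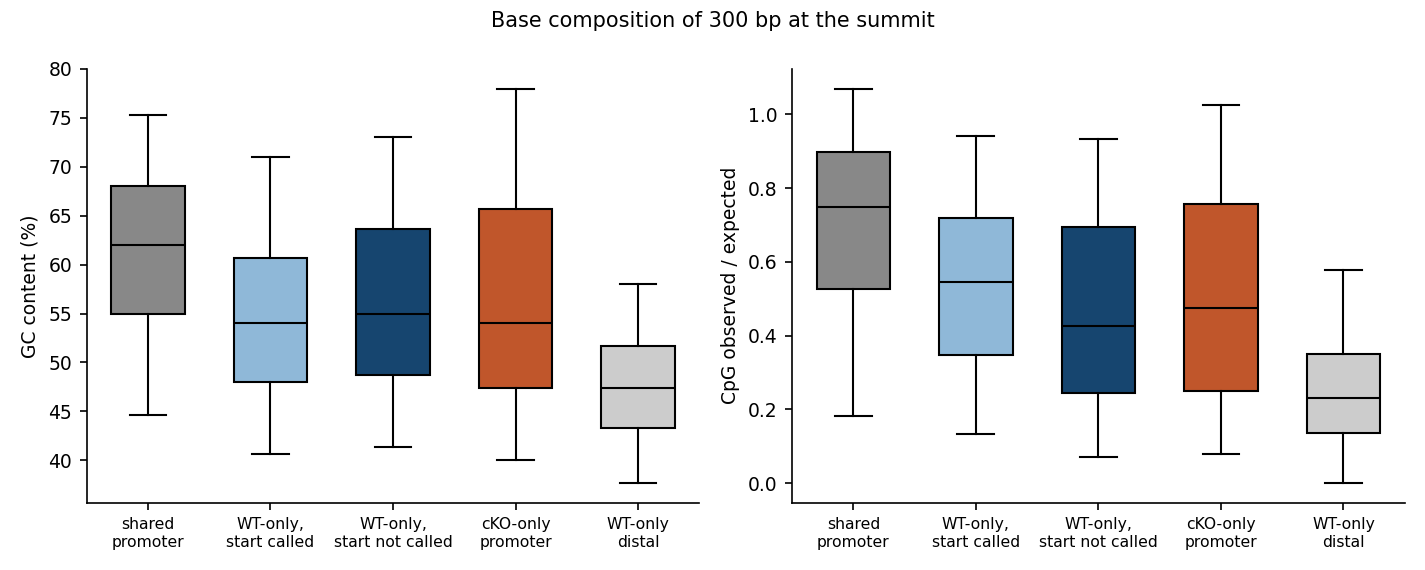
GC content (left, %) and CpG observed/expected ratio (right) of the 300 bp at the summit, for shared, WT-only, Pbrm1 cKO-only promoter regions and WT-only distal regions. Boxes span the quartiles with the median as a line and whiskers the 5th to 95th percentile. Both kinds of WT-only promoter region (medians 54.0% and 55.0% GC) lie below shared promoter regions (62.0%) and above distal ones (47.3%).

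Motifs common at housekeeping promoters were rarer than in shared promoter regions. Each motif was searched on both strands of the 300 bp, overlaps between motifs were allowed, and a match is a description of letters only. The windows, here and for base composition, are centred on the summit. It lay a median of 378 bp from the start in WT-only, 92 bp in shared and 334 bp in Pbrm1 cKO-only promoter regions. How far this distance sets the shares was not tested. The ETS motif CCGGAAG was found in 4.15% of WT-only promoter regions (Wilson 95% interval 3.31 to 5.18), 15.1% of shared and 3.83% of Pbrm1 cKO-only promoter regions, and 8.86% of all 32851 RefSeq promoter sequences of the same length. The NRF1 motif GCGCNTGCG was found in 2.27%, 11.0%, 2.48% and 6.31% in that order, the GC box GGGCGG in 31.5%, 59.5%, 36.0% and 35.7%, and the YY1 motif AAGATGGCG in 0.341%, 2.86%, 0.403% and 1.40%. The CCAAT box was at 26.7%, 36.5%, 27.0% and 37.4%, and the CRE TGACGTCA at 0.738%, 3.05%, 0.604% and 1.79%.

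The AP-1 motif TGANTCA was found in 16.5% of WT-only promoter regions, with 12.5% beside called and 20.6% at uncalled starts, against 11.3% of shared, 18.2% of Pbrm1 cKO-only promoter regions, 40.9% of WT-only distal regions and 7.81% of RefSeq promoters. The GATA motif AGATAA stood at 10.2% against 5.58% of shared and 9.26% of Pbrm1 cKO-only promoter regions and 11.2% of RefSeq promoters, and the TEAD motif GGAATG at 16.4% against 12.7%, 14.8% and 14.7%. The CTCF core was found in 1.76% of WT-only, 3.62% of shared and 4.70% of Pbrm1 cKO-only promoter regions and 1.08% of RefSeq promoters. The CArG box bound by serum response factor at smooth muscle genes was at 1.36%, 1.21%, 1.14% and 1.63% in the same order. The TATA box TATAAA was at 8.23%, 5.53%, 8.93% and 13.6%, the E-box CACGTG at 6.19%, 9.19%, 5.70% and 7.15%, the forkhead motif TGTTTAC at 3.07%, 2.42%, 3.15% and 3.65%, and the RUNX motif TGTGGTT at 4.49%, 3.76%, 6.58% and 5.27%. The letters of the CCAAT box are those of its name, and RefSeq promoters (GRCm38.p6) run from 250 bp before to 50 bp after the start, whereas the windows here are centred on the summit. For AP-1, GATA, TEAD, CArG, TATA, forkhead and RUNX the order of WT-only and shared promoter regions turned when whole regions, of unequal width, were searched (AP-1 18.1% against 19.2%, GATA 11.0% against 14.2%, TEAD 19.6% against 29.4%).

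At the limits of the rule, the farthest regions kept lay 997 bp from a start (Gm28577 and Lamr1-ps1) and the nearest left out lay 1002 bp away (Pantr2). The Fermt2 region touched a Pbrm1 cKO region with a gap of 0 bp, and that of Napb lay 12 bp from one. The smallest overlap that made a promoter region shared was 30 bp, at Gli2, followed by 58 bp at Men1, and 367 of 16721 shared WT promoter regions were covered over less than 50% of their length. The regions were spread over the chromosomes at 9.34 to 13.3 per 100 shared promoter regions. Within 20 Mb of Pbrm1 on chromosome 14 lay 34 (1.93%), against 1.20% of shared promoter regions.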

How the data were processed

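ATAC-Seq of 6 libraries (3 WT, 3 Pbrm1 cKO) was used. The study's methods, written for uterine stromal cells and taken to hold for these cells, state that the authors ran the ENCODE ATAC-Seq pipeline on GRCm38/mm10, and per the labels the tools were cutadapt, Bowtie2 and MACS2. They deposited 1 conservative IDR (irreproducible discovery rate, threshold 0.05) peak list per genotype and 1 permissive list per library (p of 0.01, at most 300000 entries). The deposited columns used are the fold of the summit over local background (a ratio), −log10 p and the IDR score; −log10 q was deposited but not used. Which libraries entered each IDR list is not given in the sources used here. Read counts were not used here, so the DESeq2 test of the study was not run. Whole tags over a summit were recovered from fold and −log10 p (100% whole within 0.02 in −log10 p).

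Starts were those of GENCODE basic transcripts, measured from the region's edge; this definition was chosen after seeing the data because it matched earlier processing. The genome and transcripts used were GRCm38. Ranks within libraries were compared with limma 3.58.1 (lmFit, eBayes with trend, R 4.3.3), Benjamini-Hochberg over all 66679 regions, threshold 0.05. The overlap, distance, motif, tag and limma steps were tested on simulated data. Intervals are Wilson 95% and cover counting error only. Over all regions, deviations showed no pairing of the libraries by replicate number.

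The regions' rule and the gene lists were chosen with earlier results of these data known. Genes were named by rule: the 10 most negative differences, the 10 highest −log10 p, up to 8 without a Pbrm1 cKO entry, up to 3 per gene list by WT rank score, up to 8 at protein-coding genes with no start called in Pbrm1 cKO, and those nearest each limit. Arhgap45, Asb2, Rgs4 and Tagln3 were named after their values were seen, as were list genes beyond the first 3. Some genes that the rule names are not reported here.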

Additional observations from a re-analysis of the deposited data

How the results depend on the processing

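The number of WT-only promoter regions ranged from 1316 to 2522 over other distances, starts and overlap rules, of which the start definitions (1507 to 2072) were tried after seeing the data. It was 978 when no Pbrm1 cKO region was allowed within 500 bp, 57 with the strongest 50% of the WT list alone and 776 with the strongest 50% of both lists. Starts still called in Pbrm1 cKO made 54.8% at 2 kb and 45.7% at 500 bp. WT-only promoter regions with a difference below 0 ranged from 1365 of 1512 (entry in all 6 libraries) to 1686 of 1761. Those called lower were 0 with fold ranks, with entries in all 6 libraries and without each replicate, 145 with normal scores, 8 with the replicate block, and, added after seeing the data, 183 with normal scores of entries with summits inside, 135 with normal scores and the replicate block, and 13 to 137 with normal scores without each library (lowest without Pbrm1 cKO library 1). Over all regions, 19 were called lower by limma, 890 with normal scores, 0 with fold ranks, 6 with entries in all 6 libraries, 65 with the replicate block, 0 to 15 without each library, 1142 with normal scores and summits inside, 822 with normal scores and the block, and 109 to 869 with normal scores without each library. Same-numbered libraries deviated with correlations of -0.00289, -0.0549 and 0.00906, so no pairing by number was seen over all regions. Whether such libraries shared a batch that acts on some regions was not tested. Of the shared regions of the same genes 8 were called lower with normal scores and 0 otherwise. Over whole regions, which are wider in the shared set, the ETS motif stood at 5.74% of WT-only and 22.9% of shared promoter regions and the GC box at 36.9% and 72.2%, while 7 motifs that were more frequent in WT-only than in shared regions in the 300 bp became less frequent than there (AP-1 18.1% and 19.2%, GATA 11.0% and 14.2%, TEAD 19.6% and 29.4%, TATA 7.78% and 11.9%, CArG 1.48% and 2.69%, forkhead 3.63% and 5.95%, RUNX 5.91% and 9.55%). Of 482 values for 45 named regions under alternatives, 447 kept their direction and side of the threshold, 28 passed the threshold and 7, of 4 regions, reversed. With summits inside, Ociad1 was at 0.02 and Ticrr at 0.04. Without each library Ticrr ranged from -2.99 to 0.14, Gm24580 from -0.40 to 0.83 and Rnf213 from -0.60 to 0.01. The cause of these shifts was not tested. The files used here give no read totals, so what depth limits could not be measured.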
